A study of Homo sapiens with 16 samples.

Results

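The genes of MHC class I antigen presentation were followed as a set of 9, HLA-B, HLA-C, HLA-E, B2M, TAP1, TAP2, TAPBP, PSMB8 and PSMB9, out of 18227 genes measured by RNA-seq. They were chosen by name for their roles, and all 9 had 1 row of values in each table. The libraries came from 2 human non-small cell lung cancer lines, A549 and H2023, in which ZC3H12A had been targeted for knockout. ZC3H12A encodes Regnase-1, an RNase that degrades many inflammatory mRNAs. In each line, wild-type cells and cells labelled ZC3H12A knockout were grown either in normal culture for 3 days or in stem-cell-enriched culture (oncospheres) for 7 days. The 8 groups held 2 libraries each, 16 in all. The culture type and its length change together and cannot be told apart. The titles name 1 knockout clone per line, so the effect of the edit and other features of that clone cannot be told apart either. Nothing in the labels says whether the 2 libraries of a group came from separate cultures, so the tests measure only the spread between these libraries.

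MHC class I molecules display short peptides from proteins made inside the cell to CD8 T cells. A polymorphic heavy chain (HLA-B or HLA-C here) pairs with the light chain beta-2-microglobulin, encoded by B2M, while HLA-E is a less variable heavy chain read mainly by NK cell receptors. Peptides are cut by the proteasome, whose catalytic subunits are replaced by PSMB8 and PSMB9 in the immunoproteasome. The TAP1 and TAP2 transporter then carries them into the endoplasmic reticulum, where tapasin (TAPBP) helps to load them. In most epithelial cells the whole set is inducible by interferons through IRF and STAT factors, by NF-kB, and by the class I transactivator NLRC5. Tumour cells can lower these genes and so escape T cells.

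8 of the 9 genes lie in the MHC on chromosome 6, and B2M lies on chromosome 15 at 44711517 to 44718145 on the + strand (RefSeq, GRCh38.p14). TAP2 (32821831 to 32838739), PSMB8 (32840717 to 32844679), TAP1 (32845209 to 32853704) and PSMB9 (32854192 to 32859851) lie close together in that order. TAP1 and PSMB9 point away from each other with 487 bases between them. HLA-E lies at 30489509 to 30494194, HLA-C at 31268749 to 31272092, HLA-B at 31353875 to 31357179 and TAPBP at 33299694 to 33314078. The heavy chains are near-identical over long stretches, so reads can be split between them in a way that the deposited values do not show. HLA-B, HLA-C and HLA-E values are therefore uncertain in their share, and gene models of HLA-B and of PSMB9 in a GENCODE annotation extend over their neighbours. HLA genes also differ in sequence between lines, so their levels across lines may also reflect mapping, which was not tested.

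The promoters are shown as background, since the windows of the members differ in 2 motifs of inducible transcription. Whether these motifs go with how a member moved between cultures was not tested. Each window of 300 bases runs from 250 bases before the start of the transcript to 50 after it, on the gene's strand. Capitals mark matches, on either strand, to AANNGAAA, a core of interferon response elements, or to the NF-kB consensus. Matches of a motif may overlap. The windows are, for HLA-B, chr6:31357130-31357429 (- strand), for HLA-C chr6:31272043-31272342 (- strand), for B2M chr15:44711267-44711566 (+ strand), for TAP1 chr6:32853655-32853954 (- strand), for TAPBP chr6:33314029-33314328 (- strand), for TAP2 chr6:32838690-32838989 (- strand) and for PSMB9 chr6:32853942-32854241 (+ strand).
HLA-B: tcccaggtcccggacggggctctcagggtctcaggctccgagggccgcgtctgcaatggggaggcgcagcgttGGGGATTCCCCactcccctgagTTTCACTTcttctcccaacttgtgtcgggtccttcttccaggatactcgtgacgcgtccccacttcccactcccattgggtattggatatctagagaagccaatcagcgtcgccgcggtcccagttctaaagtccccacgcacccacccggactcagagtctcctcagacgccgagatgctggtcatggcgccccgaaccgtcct
HLA-C: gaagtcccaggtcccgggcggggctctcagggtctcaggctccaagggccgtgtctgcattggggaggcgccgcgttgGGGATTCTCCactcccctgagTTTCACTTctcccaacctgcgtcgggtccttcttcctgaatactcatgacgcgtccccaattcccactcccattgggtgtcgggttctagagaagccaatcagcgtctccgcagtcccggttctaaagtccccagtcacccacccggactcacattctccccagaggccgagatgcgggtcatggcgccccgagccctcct
B2M: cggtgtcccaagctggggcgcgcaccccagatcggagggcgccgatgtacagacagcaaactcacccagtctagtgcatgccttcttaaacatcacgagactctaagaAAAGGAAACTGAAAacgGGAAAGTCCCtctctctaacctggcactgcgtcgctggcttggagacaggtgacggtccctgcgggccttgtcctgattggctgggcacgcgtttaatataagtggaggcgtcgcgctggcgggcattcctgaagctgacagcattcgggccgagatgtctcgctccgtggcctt
TAP1: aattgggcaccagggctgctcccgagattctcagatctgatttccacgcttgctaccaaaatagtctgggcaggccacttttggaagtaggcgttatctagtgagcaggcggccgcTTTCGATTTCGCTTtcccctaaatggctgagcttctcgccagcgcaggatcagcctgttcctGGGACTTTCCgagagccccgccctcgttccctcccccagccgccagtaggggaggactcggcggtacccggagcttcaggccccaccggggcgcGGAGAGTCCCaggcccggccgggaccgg
TAPBP: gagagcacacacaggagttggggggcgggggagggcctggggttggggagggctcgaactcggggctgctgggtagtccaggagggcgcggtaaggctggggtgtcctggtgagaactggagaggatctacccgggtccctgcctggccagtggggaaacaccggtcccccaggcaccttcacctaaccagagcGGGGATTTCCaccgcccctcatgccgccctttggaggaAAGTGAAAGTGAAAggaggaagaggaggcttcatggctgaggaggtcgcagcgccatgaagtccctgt
TAP2: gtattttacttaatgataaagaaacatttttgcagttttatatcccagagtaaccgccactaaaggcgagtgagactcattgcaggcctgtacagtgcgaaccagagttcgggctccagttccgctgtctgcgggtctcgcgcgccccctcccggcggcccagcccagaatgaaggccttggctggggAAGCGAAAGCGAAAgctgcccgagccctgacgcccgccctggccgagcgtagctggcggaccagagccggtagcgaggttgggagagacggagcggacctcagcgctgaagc
PSMB9: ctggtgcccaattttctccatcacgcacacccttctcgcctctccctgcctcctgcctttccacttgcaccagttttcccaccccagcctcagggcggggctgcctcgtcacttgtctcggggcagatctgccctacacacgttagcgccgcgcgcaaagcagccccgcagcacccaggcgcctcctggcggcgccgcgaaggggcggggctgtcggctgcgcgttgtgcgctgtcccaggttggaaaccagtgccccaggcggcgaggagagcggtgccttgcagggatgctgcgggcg

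8 of the 9 genes had a window in the RefSeq promoter table, and HLA-E had none. HLA-B, HLA-C, B2M, TAP1 and TAPBP held both motifs, which 1.61% of all 35116 windows did. The second of 2 windows of TAP1, not printed here, held none of the motifs searched. In B2M the motif pair stood at -142 to -129 and -125 to -116 from the start, and in HLA-B at -155 to -148 and -177 to -167, with the order of the motifs exchanged. The TAP2 window, and the second of 2 windows of PSMB8, held AANNGAAA alone, which 22.8% of all windows contain. The first PSMB8 window held neither of the 2 motifs, and no PSMB8 window is printed here. PSMB9 held neither in its window, which overlaps that of TAP1 at one end. The TAP1 matches at -134 to -121 and -72 to -63 from its start lie between the 2 genes, outside the PSMB9 window. The NF-kB consensus was in 11.3% of all windows. TGACG, the core of the cAMP response element, was in 24.6% of them and in HLA-B, HLA-C, B2M, TAP2, PSMB9 and the first PSMB8 window. These are matches of letters in a window and say nothing on which factors bound there.

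The values are TPM, a transcript's share of its library after scaling for transcript length, so levels of different genes can be set side by side on this scale. Each library had 13824 to 14508 genes at 1 TPM or more. The read depth of a library is not kept in TPM, but the authors' mean normalized count of a member in a table ran from 155 for PSMB9 in A549 normal culture to 15443 for B2M in H2023 stem-cell-enriched culture. Mitochondrial genes took 10.3% to 18.7% of TPM in normal culture, and in stem-cell-enriched culture 19.5% to 25.6%. All 7 lung epithelial markers on the list were measured, with KRT8 at 765 to 5982 TPM. EPCAM was low in A549 (0.37 to 9.40 TPM). Of other cell types, 3 of 10 leukocyte markers (CD14, LYZ, CD68) had values, and the other 7, PTPRC among them, were not analysed here. The RNA level of the targeted gene was not lower by label in every comparison. ZC3H12A had 30.7 and 34.9 TPM in wild-type A549 in normal culture and fell to 16.9 and 19.9 TPM by label, but was higher in the libraries labelled knockout in the other comparisons, and in stem-cell-enriched H2023 it reached 94.6 and 69.2 TPM against 32.5 and 26.4 TPM. TPM counts RNA of the gene and cannot show whether an edit removed its function. Libraries are therefore called "labelled knockout" throughout, and every direction rests on the label.

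B2M was the most abundant member in all 16 libraries, from 511 to 3047 TPM. In wild-type A549 it had 658 and 511 TPM in normal culture and 3047 and 1652 TPM in stem-cell-enriched culture. The A549 libraries labelled knockout had 668 and 639 TPM in normal culture and 1719 and 1639.8 TPM in stem-cell-enriched culture. The stem-cell-enriched libraries of A549 thus stood above all normal-culture ones, with wild-type replicate 1 far above the other 3. In H2023 the wild type had 799 and 800.5 TPM in normal culture and 1327 and 2023.2 TPM in stem-cell-enriched culture. Libraries of H2023 labelled knockout had 779 and 866 TPM, then 1656 and 2812 TPM. In both H2023 genotypes replicate 2 of the stem-cell-enriched culture was the higher one.

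HLA-B varied more than any other member, 55.0-fold between its lowest and highest library. Wild-type A549 had 15.8 and 11.1 TPM in normal culture and 315 and 139 TPM in stem-cell-enriched culture. The A549 libraries labelled knockout had 24.4 and 16.1 TPM, then 103 and 52.4 TPM. The lowest H2023 library, at 109 TPM, stood above every A549 library in normal culture. Wild-type H2023 had 111 and 109 TPM in normal culture and 275 and 436 TPM in stem-cell-enriched culture, and its libraries labelled knockout had 117 and 131 TPM, then 338 and 612 TPM. In the order of group means, H2023 labelled knockout, H2023 wild type and A549 wild type, all in stem-cell-enriched culture, came first, and neighbours among these 3 overlapped.

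HLA-C was set apart by line as well as by culture, though its levels across lines may also reflect mapping. In A549 the wild type had 41.7 and 39.25 TPM in normal culture and 289 and 175 TPM in stem-cell-enriched culture, against 63.1 and 47.7 TPM and 127 and 109 TPM in libraries labelled knockout. All H2023 libraries lay above all A549 ones, with 339 and 354 TPM in wild-type normal culture and 468 and 512 TPM in stem-cell-enriched culture. The H2023 libraries labelled knockout had 381 and 385 TPM, then 729 and 813 TPM. No 2 neighbouring groups overlapped in its order. HLA-E had a narrower range, 4.93-fold. In A549 its wild-type values were 36.2 and 33.2 TPM, then 163 and 101 TPM, and those of the libraries labelled knockout 45.0 and 34.4 TPM, then 84.3 and 73.9 TPM. H2023 wild type had 55.75 and 53.1 TPM, then 80.75 and 82.4 TPM, and the libraries labelled knockout had 79.2 and 79.9 TPM, then 147 and 164 TPM. For HLA-E in H2023, normal culture labelled knockout thus lay just below stem-cell-enriched wild type, and both cultures labelled knockout lay above their own wild type.

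**Figure D1:**
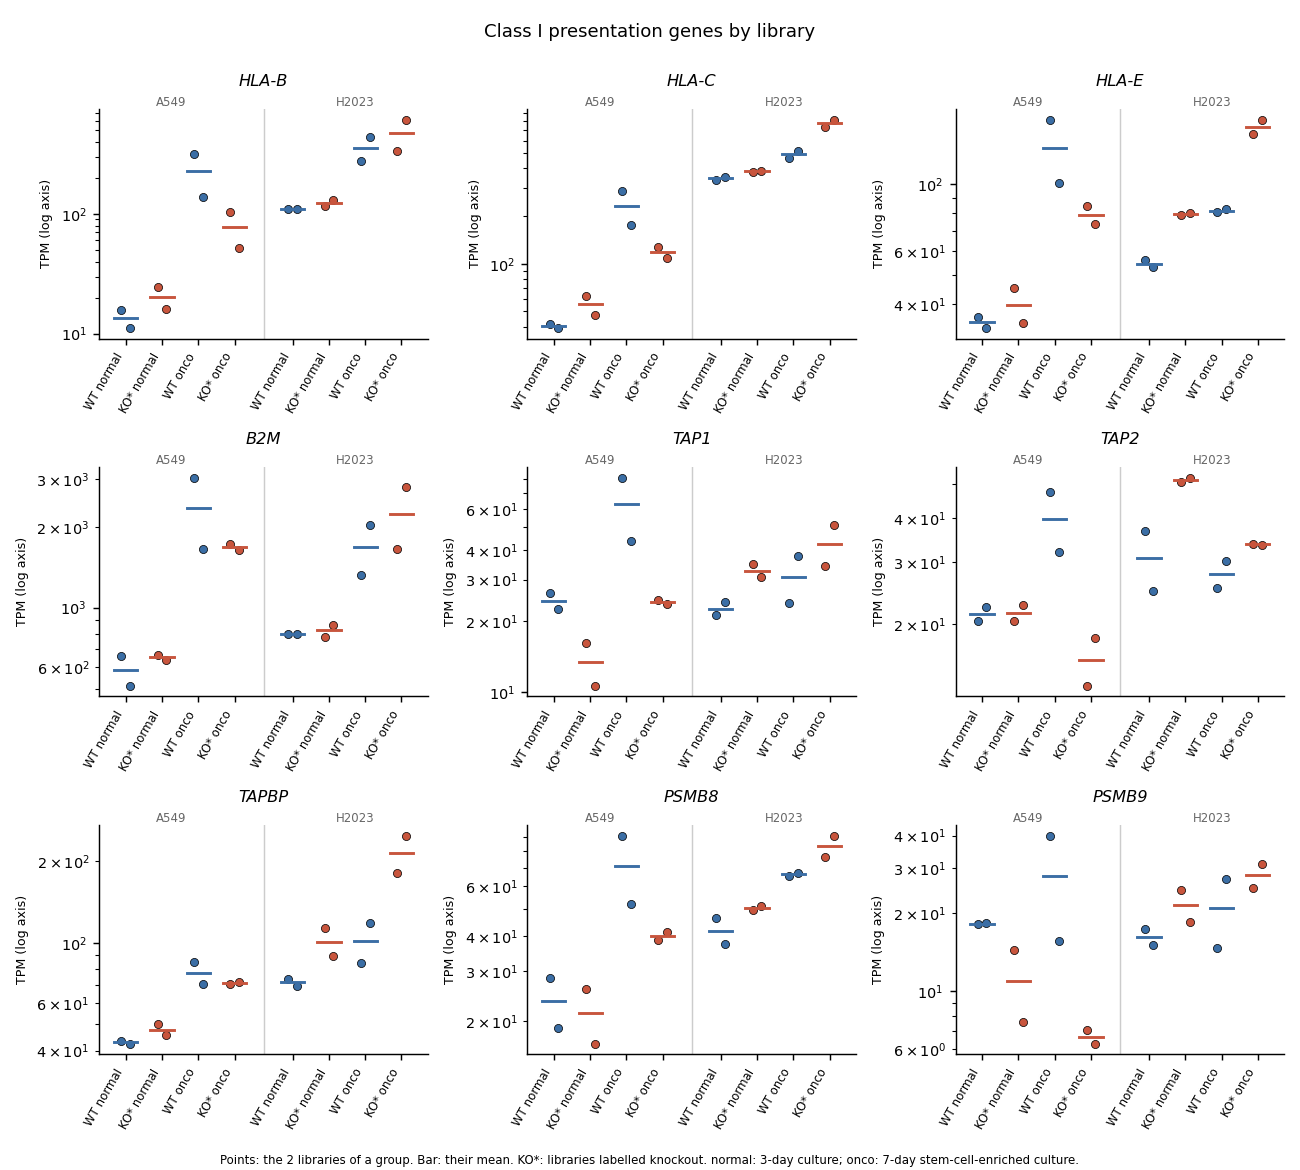
TPM on a log axis for the 9 members, with 1 panel per gene, 1 point per library and a bar at the mean of the 2 libraries of each group, for wild type (blue) and libraries labelled knockout (red). HLA-B and HLA-C show the widest range, and the TAP2 and PSMB9 panels show A549 libraries labelled knockout at the bottom in stem-cell-enriched culture (13.4 and 18.3 TPM for TAP2, 7.12 and 6.26 TPM for PSMB9).

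The transporter and the loading chaperone were expressed between 10.6 and 249 TPM. TAP1 had 26.5 and 22.5 TPM in wild-type A549 in normal culture and 81.3 and 43.8 TPM in stem-cell-enriched culture, against 16.2 and 10.6 TPM and 24.7 and 23.6 TPM in libraries labelled knockout. In H2023 it had 21.15 and 24.1 TPM, then 23.9 and 37.6 TPM, in wild type, and 34.8 and 30.8 TPM, then 34.1 and 51.2 TPM, in the libraries labelled knockout. TAP1 libraries labelled knockout were thus below wild type in both A549 cultures, and above it in H2023 normal culture only. TAP2 had 20.5 and 22.3 TPM in wild-type A549 in normal culture and 47.4 and 31.96 TPM in stem-cell-enriched culture, against 20.5 and 22.6 TPM and 13.4 and 18.3 TPM in libraries labelled knockout. Its highest group was H2023 labelled knockout in normal culture, at 50.5 and 52.0 TPM, and its H2023 wild type had 36.7 and 24.9 TPM there. In H2023 stem-cell-enriched culture TAP2 had 25.4 and 30.2 TPM in wild type and 33.7 and 33.65 TPM in libraries labelled knockout. TAPBP ran from 43.5 and 42.35 TPM in wild-type A549 in normal culture to 182 and 249 TPM in H2023 labelled knockout in stem-cell-enriched culture. In H2023 its wild type had 73.4 and 69.5 TPM, then 84.4 and 118 TPM, and its libraries labelled knockout had 113 and 89.15 TPM in normal culture. The 4 stem-cell-enriched A549 libraries lay close together for TAPBP, between 70.4 and 84.8 TPM.

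The immunoproteasome subunits PSMB8 and PSMB9 replace the constitutive PSMB5 and PSMB6. PSMB8 in wild-type A549 had 28.35 and 18.9 TPM in normal culture and 90.4 and 51.9 TPM in stem-cell-enriched culture, against 26.0 and 16.6 TPM and 38.7 and 41.3 TPM in libraries labelled knockout. In H2023 wild type it had 46.3 and 37.4 TPM, then 65.4 and 67.2 TPM, and with the knockout label 49.3 and 51.2 TPM, then 76.35 and 90.9 TPM. PSMB9 was the least abundant member in every library except those of wild-type A549 in normal culture, where HLA-B was. Its wild-type A549 values were 18.2 and 18.3 TPM in normal culture and 40.0 and 15.6 TPM in stem-cell-enriched culture, 2 libraries that fall on either side of normal culture. The A549 libraries labelled knockout had 14.4 and 7.58 TPM, then 7.12 and 6.26 TPM. In H2023 PSMB9 had 17.4 and 15.15 TPM, then 14.7 and 27.1 TPM, in wild type, and 24.7 and 18.55 TPM, then 25.0 and 31.1 TPM, in the libraries labelled knockout.

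The first comparison set stem-cell-enriched against normal culture within each line and genotype. Between 4 and 8 of the 9 members rose in stem-cell-enriched culture in the 4 settings and none was called lower, and the values below 0 belonged to TAP2 and PSMB9. In wild-type A549, 8 of 9 members rose, with a median log2 difference of 1.53, where limma on log2(TPM + 1) at an adjusted p under 0.05 called 19% of all 18227 genes higher. HLA-B rose 16.8-fold in mean TPM (log2 difference 3.88, standard error (SE) 0.43, adjusted p = 3.54e-04), HLA-C 5.74-fold (2.45, SE 0.23, adjusted p = 1.69e-04) and B2M 4.02-fold (1.95, SE 0.26, adjusted p = 8.15e-04). HLA-E, PSMB8, TAP1, TAP2 and TAPBP rose by 1.86, 1.53, 1.26, 0.83 and 0.83 on the log2 scale, and PSMB9 had 0.44 (SE 0.41, adjusted p = 0.428). All 3 measured leukocyte markers rose beside them (CD14 by 1.70, CD68 by 1.79 and LYZ by 3.59), with a summed level of 58.9 and 45.5 TPM in normal culture and 245 and 151 TPM in stem-cell-enriched culture. PECAM1, the 1 endothelial marker measured, rose to 2.76 and 1.77 TPM from 0.04 and 0.10 TPM. Their part in the result was not tested. In the 8 members that rose both stem-cell-enriched libraries exceeded both normal ones, as 33.7% of all genes did. Without wild-type stem-cell-enriched replicate 1, the higher of the 2 for all 9 members, 7 members were called, among them HLA-B at 3.29. TAP2 then had 0.56 (adjusted p = 0.0791, the highest over its alternatives, which reach down to 0.00686) and PSMB9 -0.22. The TAP1 call was lost without normal-culture replicate 2 and that of TAP2 without normal-culture replicate 1, and PSMB9 was called without stem-cell-enriched replicate 2.

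The same contrast in the A549 libraries labelled knockout called 5 members higher, HLA-B, HLA-C, HLA-E, B2M and TAPBP, against 10.9% of all genes. The rises were smaller in size, with HLA-B at 1.84 (SE 0.43, adjusted p = 0.0199) and B2M at 1.36 (SE 0.26, adjusted p = 0.0089). TAP2 and PSMB9 had values of -0.43 and -0.58, with adjusted p-values of 0.182 and 0.364 and with both stem-cell-enriched libraries below both normal ones, as for 32% of all genes. The count was 0 without normal-culture replicate 2 or without stem-cell-enriched replicate 1, and 3 without stem-cell-enriched replicate 2.

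In wild-type H2023, 4 members rose, HLA-B (1.65, SE 0.31, adjusted p = 0.0155), HLA-C (0.50, SE 0.10), HLA-E (0.58, SE 0.08) and PSMB8 (0.66, SE 0.13), against 3.96% of all genes. B2M missed the threshold at 1.03 (SE 0.29, adjusted p = 0.0509). Both stem-cell-enriched libraries exceeded both normal ones for 6 members, as for 14.6% of all genes. In the H2023 libraries labelled knockout 6 members rose, against 7.68% of all genes. They were HLA-B (1.87), B2M (1.39), TAPBP (1.07), HLA-C (1.00), HLA-E (0.95) and PSMB8 (0.72), with adjusted p from 0.00106 for HLA-E to 0.0167 for B2M. TAP2 was the exception, with 33.7 and 33.65 TPM against 50.5 and 52.0 TPM in normal culture (-0.59, adjusted p = 0.0572), and 42.9% of all genes were separated downward there. Without single libraries the wild-type count fell to 2 (normal-culture replicate 1) or 1 (normal-culture replicate 2, or stem-cell-enriched replicate 2), leaving HLA-E in each case. In the libraries labelled knockout it fell to 3 without either normal-culture library or without stem-cell-enriched replicate 2, with HLA-C and HLA-E among the 3 each time.

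The share of mitochondrial RNA moved with culture in both lines, and TPM values are relative to it. With mitochondrial genes removed from the scaling, the counts were 8 and 7 in A549 and 5 and 6 in H2023, wild type first. The whole transcriptome was shifted in H2023, with a median log2 difference over all genes of -0.18 in wild type and -0.12 in the libraries labelled knockout. In wild-type H2023, 18.5% of all calls were upward, against 53.6% with each library centred on its median and 44.7% without mitochondrial genes, and TAP2 turned from -0.13 to a positive value under both of these scalings. The split for the H2023 libraries labelled knockout was 28.6%, against 48% centred and 50.7% without mitochondrial genes. In wild-type A549 it was 46.8%, against 57.5% without mitochondrial genes. The member calls given above were not fewer under either scaling in any of the 4 settings.

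**Figure D2:**
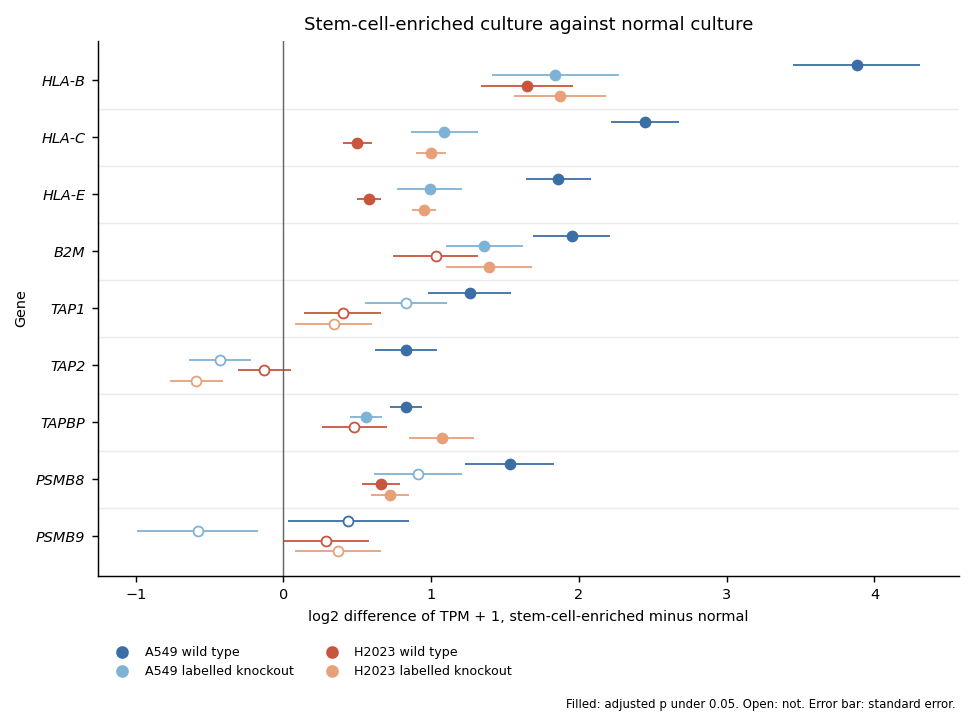
Log2 difference of TPM + 1 between stem-cell-enriched and normal culture for each member, with standard errors, in the 2 lines and 2 genotypes, where filled points passed an adjusted p of 0.05. HLA-B in wild-type A549 lies farthest to the right at 3.88, and the values below 0 belong to TAP2 and PSMB9.

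The next comparison set libraries labelled knockout against wild type. In A549 stem-cell-enriched culture all 9 members had lower mean levels in the libraries labelled knockout, and 2 of them fell at the threshold. TAP1 fell by 1.27 on the log2 scale (SE 0.29, adjusted p = 0.047) and TAP2 fell by 1.26 (SE 0.24, adjusted p = 0.0307), where 7.2% of all genes were called lower. PSMB9 (-1.76, SE 0.43, adjusted p = 0.0551), HLA-B (-1.49, adjusted p = 0.104) and HLA-C (-0.93, adjusted p = 0.0695) did not pass. For 7 members both libraries labelled knockout lay below both wild-type ones, as for 27.8% of all genes, and the exceptions were B2M and TAPBP. The median difference of the members was -0.93, and that of all genes 0.03. The authors' deposited table lists the same 7 members as lower at an adjusted p under 0.05, from -0.76 for HLA-E to -2.15 for PSMB9, against 11.4% of its genes. Fits without 1 of the 4 libraries lost nearly all calls over all genes here, so a lost call there is not particular to a member. Without wild-type replicate 1, TAP1 had -0.83, TAP2 -0.98, PSMB9 -1.11, HLA-B -0.91 and HLA-C -0.57, while B2M and TAPBP had 0.02 and 0.01.

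Other measures moved with the members in that comparison. The summed level of 24 type I interferon-stimulated genes was 6116 and 2219 TPM in the wild-type libraries and 464 and 215 TPM in those labelled knockout. LYZ and CD68, which mark myeloid cells but are also made by other cells, fell there too, LYZ from 18.6 and 6.81 TPM to 0.28 TPM and a listed 0, and CD68 from 179 and 117 TPM to 44.5 and 29.7 TPM. The 3 measured leukocyte markers summed to 245 and 151 TPM in wild type and to 79.1 and 58.6 TPM in libraries labelled knockout. Of the 7 epithelial markers, EPCAM fell there by 2.33 and KRT19 fell by 3.68 on the log2 scale. Limma did not call the other 5, with KRT8 at 0.05, KRT18 at 0.05 and CDH1 at 0.27. KRT7, however, was at 664 and 630 TPM by label, where wild type had 1436 and 974 TPM. CLDN4 was at 3.23 and 2.8 TPM, where wild type had 7.18 and 4.74 TPM. Both were among 4 of the 7 markers lower by the deposited test (KRT7 -0.91, CLDN4 -1.16). The limma median of all 7 was -0.77. The part of these in the result was not tested. In bulk RNA, fewer cells that express a gene and less of its RNA per cell cannot be told apart.

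In A549 normal culture no member was called, where limma called 10.8% of all genes. An unadjusted p under 0.05 was found for 3 of 9 members, beside 31.7% of all genes. Both libraries labelled knockout lay above wild type for 3 members, HLA-B, HLA-C and TAPBP, as for 27.2% of all genes. Both lay below it for 2 members, TAP1 and PSMB9, as for 34.6% of all genes. For a set of 9 these counts are not far from the shares of all genes. TAP1 had -0.85 (SE 0.22, adjusted p = 0.0696) and HLA-C 0.43 (SE 0.15, adjusted p = 0.132). The authors' deposited table calls these 2 members, TAP1 at -0.72 and HLA-C at 0.54, against 22.1% of its genes. Of the 7 epithelial markers limma called 4 lower by label there and none higher, beside 10.8% of all genes called in either direction. Among them were KRT19 (-2.47), KRT18 (-2.09) and KRT8 (-1.87), the last from 3626 and 3569 TPM to 1259 and 765 TPM. How these relate to the members was not tested.

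In H2023 all 9 members had a positive difference by label in both cultures, with a median of 0.38 in normal culture and of 0.46 in the other, but limma called no member in either, nor any other gene (0%). With p not adjusted, 4 members and 3314 genes were under 0.05 in normal culture, and 3 members and 2828 genes in stem-cell-enriched culture. In normal culture 8 members had both libraries labelled knockout above both wild-type ones, against 26.1% of all genes, with TAP2 at 0.74 (SE 0.20), HLA-E at 0.54 (SE 0.07) and TAP1 at 0.52 (SE 0.12). The authors' deposited table calls HLA-E, TAP1, TAP2 and TAPBP higher there, by 0.51 to 0.54, against 3.84% of its genes. In stem-cell-enriched culture 5 members were separated upward, HLA-C, HLA-E, TAP2, TAPBP and PSMB8, against 28.6% of all genes. The largest differences were in TAPBP (1.08, SE 0.25, adjusted p = 0.241) and HLA-E (0.92, SE 0.10, adjusted p = 0.208). The authors' deposited table calls HLA-C, HLA-E and TAPBP higher there, by 0.58, 0.86 and 0.97, against 2.22% of its genes.

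**Figure D3:**
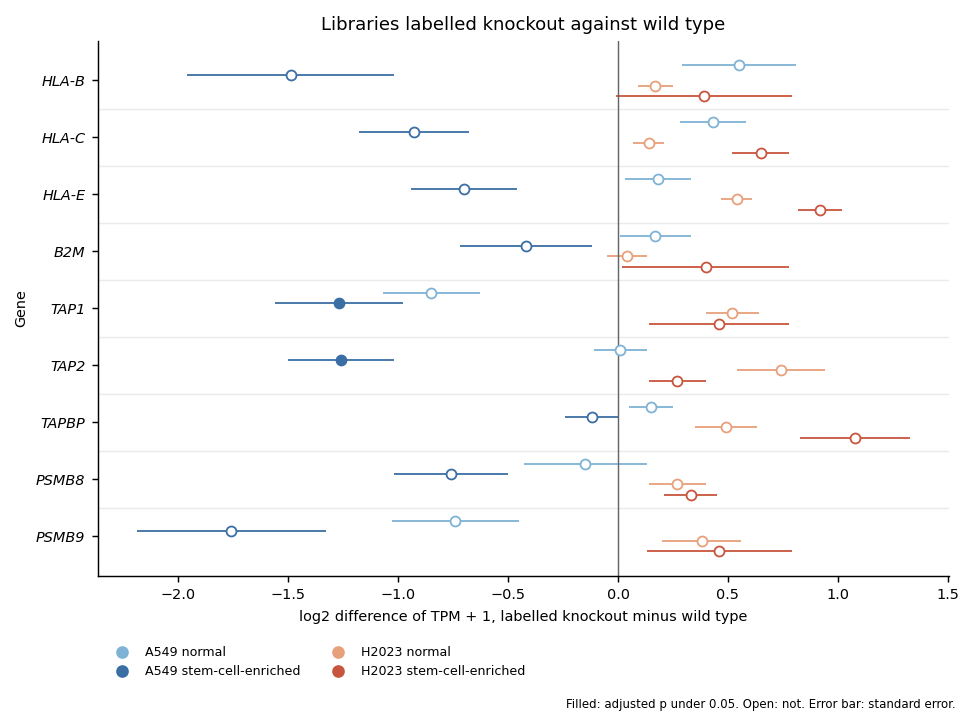
Log2 difference of TPM + 1 between libraries labelled knockout and wild type for each member, with standard errors, by line and culture, where filled points passed an adjusted p of 0.05. All 9 A549 stem-cell-enriched values are negative and all 18 H2023 values are positive, and the filled points are TAP1 and TAP2.

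Whether the difference by label itself differed was tested with interaction terms. Between the lines in stem-cell-enriched culture (H2023 minus A549), 7 of 9 members had a higher difference in H2023, where 9.37% of all genes did. The values were 2.22 for PSMB9 (SE 0.55, adjusted p = 0.0168), 1.89 for HLA-B (SE 0.59, adjusted p = 0.0474), 1.74 for TAP1, 1.61 for HLA-E (SE 0.26, adjusted p = 0.00155), 1.58 for HLA-C, 1.53 for TAP2 and 1.20 for TAPBP. PSMB8 had 1.09 (adjusted p = 0.0647) and B2M 0.81 (adjusted p = 0.218). HLA-C, HLA-E, TAP2 and TAPBP were called in each of the 8 fits that left out 1 library. These 4 were the only ones called without A549 wild-type replicate 1, H2023 wild-type replicate 1 or H2023 labelled-knockout replicate 2, and TAP1 was called beside them without A549 labelled-knockout replicate 2. Of all calls in this comparison 57.6% were upward, and 47.3% with each library centred on its median, where 6 members were called. Computed from the folds and standard errors of the authors' deposited tables, 8 members were higher, against 8.07% of the genes.

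In normal culture the same interaction called no member, where 12.1% of all genes were called. An unadjusted p under 0.05 was found for 2 of 9 members, beside 27.8% of all genes. TAP1 came closest at 1.36 (SE 0.42, adjusted p = 0.0531). It was called when A549 labelled-knockout replicate 1 was left out. From the authors' deposited tables, TAP1, TAP2 and PSMB9 had a higher difference in H2023 (1.23, 0.90 and 1.39), against 8.88% of the genes. Between the cultures of A549 (stem-cell-enriched minus normal), 2 members had a lower difference in stem-cell-enriched culture, HLA-C (-1.36, SE 0.32, adjusted p = 0.0472) and TAP2 (-1.27, SE 0.29, adjusted p = 0.0437), against 3.13% of all genes. HLA-B had -2.04 (SE 0.61, adjusted p = 0.0852). All 9 values were negative. From the authors' deposited tables, HLA-B, HLA-C and HLA-E had a lower difference in stem-cell-enriched culture (-1.95, -1.55 and -1.01), against 4.82% of the genes. Each of these 2 calls was lost in 7 of the 8 fits that left out 1 library, the exception being A549 wild-type stem-cell-enriched replicate 2, without which HLA-B, HLA-C, HLA-E and TAP2 were called. Between the cultures of H2023, 0 members and 0% of all genes were called, with 2 members and 1294 genes at an unadjusted p under 0.05.

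Wild-type levels also differed between the lines. For the HLA genes, which differ in sequence between lines, such a difference may also reflect mapping, which was not tested. In normal culture 5 members were higher in H2023, against 26.6% of all genes. HLA-C was 8.57-fold higher (log2 difference 3.07, SE 0.19, adjusted p = 4.33e-07) and HLA-B 8.17-fold higher (2.96, SE 0.42, adjusted p = 1.55e-04), followed by PSMB8 (0.82), TAPBP (0.72) and HLA-E (0.63). TAP1, PSMB9 and B2M did not pass, at -0.11, -0.16 and 0.46. With libraries centred on their medians, where the median over all genes goes from 0.12 to -0.10, 3 members were called, and 41.8% of all calls were upward against 64.1%. Without A549 replicate 2 or H2023 replicate 1 the calls were HLA-B, HLA-C and TAPBP. In stem-cell-enriched culture HLA-C remained higher in H2023 (1.12, SE 0.19, adjusted p = 5.24e-04; 23.4% of all genes), and HLA-E (-0.65, SE 0.18, adjusted p = 0.0121) and TAP1 (-0.97, SE 0.30, adjusted p = 0.0173) were lower (24.4% of all genes). Without A549 replicate 1, HLA-E had -0.31 and TAP1 -0.53 and neither was called, while HLA-B was called higher at 1.31. The TAP1 call was also lost without H2023 replicate 1.

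Ratios within a library do not depend on the total of the library. HLA-B and HLA-C varied together (Pearson r over 8 libraries 0.99 in A549 and 0.91 in H2023) but by different amounts, within the uncertainty of how reads are shared between heavy chains. HLA-B over HLA-C was 0.284 to 0.388 in the 8 normal-culture libraries and 0.464 to 1.09 in the 8 stem-cell-enriched ones. The summed TPM of HLA-B, HLA-C and HLA-E over that of B2M separated the lines, at 0.142 to 0.252 in A549 and 0.510 to 0.741 in H2023. Like the HLA levels, this split by line may also reflect mapping. Within A549 the highest ratios were both in wild-type stem-cell-enriched culture, at 0.252 and 0.251. PSMB8 over PSMB5, the immunoproteasome subunit over the one it replaces, was 0.0612 to 0.0834 in wild-type A549 in normal culture, against 0.242 to 0.435 in stem-cell-enriched culture. In the A549 libraries labelled knockout it was 0.0592 to 0.0922, then 0.160 to 0.171. H2023 had 0.137 to 0.192 in normal culture over both genotypes, and in stem-cell-enriched culture 0.353 and 0.385 in wild type and 0.436 and 0.588 in the libraries labelled knockout. PSMB9 over PSMB6 in the A549 libraries labelled knockout was as low in stem-cell-enriched culture (0.0339 and 0.0268) as in normal culture (0.0437 and 0.0248). In H2023 labelled knockout it went from 0.0811 and 0.0611 to 0.150 and 0.196. PSMB10 over PSMB7, the third such pair, was 0.0798 to 0.102 in H2023 normal culture, below all A549 libraries. TAP1 over TAP2 was 0.789 and 0.469 in A549 normal culture labelled knockout, against 1.29 and 1.01 in wild type.

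**Figure D4:**
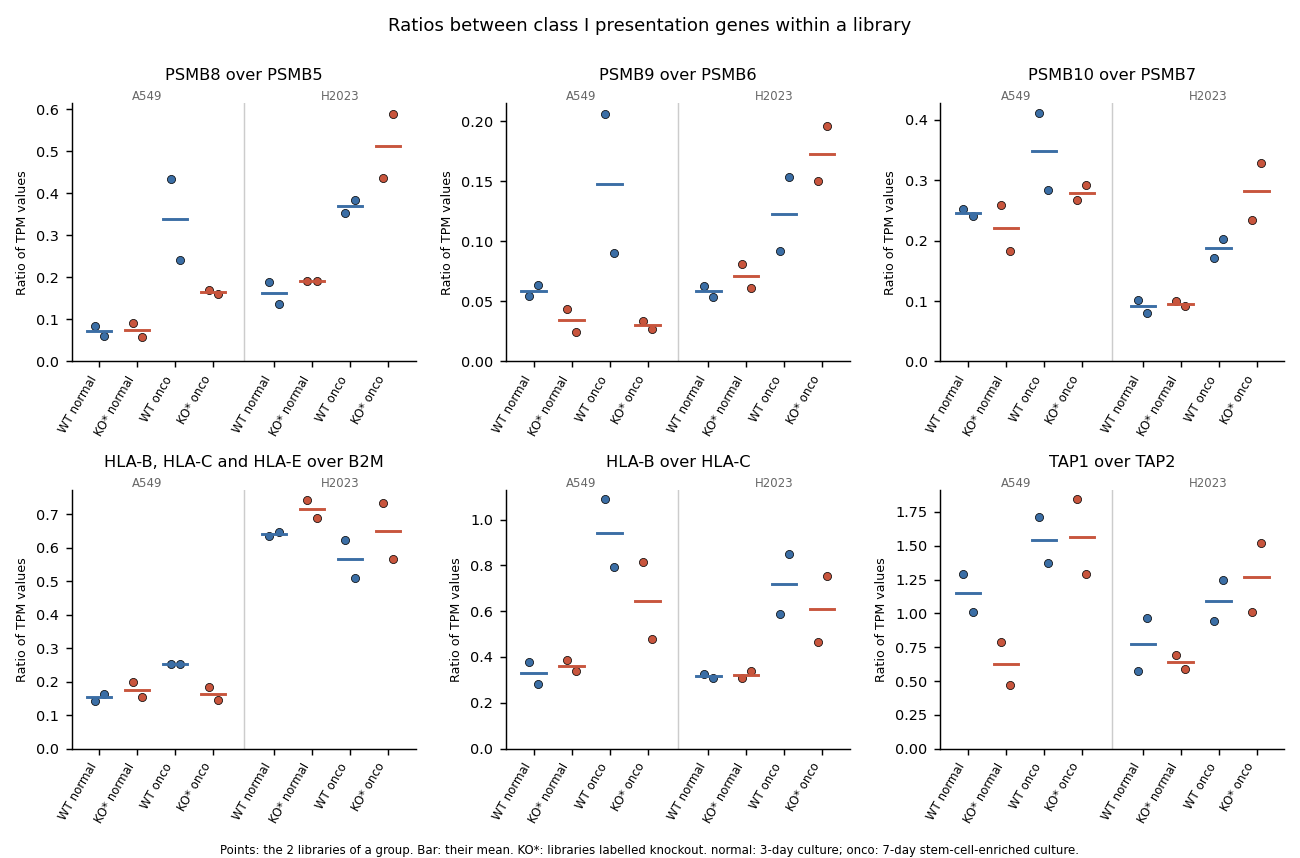
Ratios of TPM values within each library, with 1 point per library and a bar at the mean of each group, for wild type (blue) and libraries labelled knockout (red). The heavy-chain ratio to B2M splits by line, HLA-B over HLA-C splits by culture, and PSMB9 over PSMB6 stays at or under 0.0437 in all 4 A549 libraries labelled knockout.

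Part of the shift in the proteasome ratios lay in the denominators. In wild-type A549, PSMB5 (-0.62), PSMB6 (-0.76) and PSMB7 (-0.87), the constitutive catalytic subunits, fell with stem-cell-enriched culture, and in wild-type H2023 they fell by 0.53, 0.73 and 0.64. Of 10 other proteasome subunits and activators, 3 rose and 5 fell in wild-type A549 and 0 rose and 4 fell in wild-type H2023, where 21.6% and 17.4% of all genes were called lower and 19% and 3.96% higher (2 fell in H2023 without normal-culture or stem-cell-enriched replicate 2). Those that rose in A549 were PSME1 (0.80) and PSME2 (0.61), which form the interferon-inducible cap, and UBD (1.47), a ubiquitin-like modifier. Without A549 wild-type stem-cell-enriched replicate 1, or without normal-culture replicate 2, 1 gene of the list was called higher. PSMB10, the third immunoproteasome subunit, had -0.39 in wild-type A549 (adjusted p = 0.194), unlike PSMB8.

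Of 4 other class I heavy chains and their relatives measured, 3 rose with stem-cell-enriched culture in wild-type A549, against 19% of all genes. In wild-type H2023 2 rose, against 3.96% of all genes, and fewer did when any 1 of its 4 libraries was left out. HLA-F, a nonclassical heavy chain, had 2.78 and 3.10 TPM in wild-type A549 in normal culture and 55.1 and 28.7 TPM in stem-cell-enriched culture (3.37, adjusted p = 1.37e-04). In A549 stem-cell-enriched culture it fell in the libraries labelled knockout to 10.7 and 7.72 TPM (-2.01, SE 0.33, adjusted p = 0.0208), the only 1 of these 4 to change there. FCGRT, the neonatal Fc receptor, rose in A549 normal culture labelled knockout (1.09, adjusted p = 0.0179). The calls by label in A549 of HLA-F, FCGRT and the regulators, receptors and proteasome genes named here needed all 4 libraries. Fits without 1 of them lost nearly all calls over all genes, so this is not particular to these genes. Of 10 genes of peptide loading and trimming, such as CALR, ERAP1 and ERAP2, limma called 0 by label in any of the 4 settings, with medians from -0.04 to 0.20 and with 3 at an unadjusted p under 0.05 in each A549 culture. Of H2023 cultures the normal one had 1 such gene and the stem-cell-enriched one 0. Over all genes the shares at an unadjusted p under 0.05 were 31.7% and 30.3% in A549, normal culture first. In H2023 they were 18.2% and 15.5%. The authors' deposited tables call TAPBPL (-1.15) and CANX (-0.30) lower in A549 normal culture, TAPBPL (-1.55) and SPPL2B (-0.57) lower in A549 stem-cell-enriched culture, and ERAP1 (0.71) higher in H2023 stem-cell-enriched culture. With culture in wild-type A549, limma called 3 of these 10 higher, beside 19% of all genes, among them TAPBPL (1.21, adjusted p = 0.0176), a tapasin relative that edits peptides. The count was 1 without either normal-culture library or without stem-cell-enriched replicate 1, and 2 without stem-cell-enriched replicate 2.

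Among 16 genes of class I transcription, 2 rose and 2 fell in A549 stem-cell-enriched culture labelled knockout, beside 6.04% of all genes higher and 7.2% lower, with a median of 0.03. NLRC5, the class I transactivator, fell from 19.6 and 13.2 TPM to 6.06 and 4.86 TPM (-1.41, SE 0.24, adjusted p = 0.0217), and IRF9, part of the interferon-activated factor ISGF3, from 117 and 72.6 TPM to 37.5 and 30.9 TPM (-1.41, SE 0.24, adjusted p = 0.0233). CIITA, the class II transactivator, rose from 0.50 and 0.18 TPM to 3.96 and 4.38 TPM (1.96, SE 0.20, adjusted p = 0.00625). IRF1, an inducible activator of these promoters, had 32.8 and 17.5 TPM against 27.1 and 23.9 TPM (0.08, adjusted p = 0.886). In A549 normal culture limma called 1 of the 16 higher by label, STAT2 (1.11, SE 0.14, adjusted p = 0.0163), and 0 lower, beside 10.8% of all genes in either direction. The authors' deposited table calls 4 higher there, NLRC5 (0.8), IRF9 (0.82), STAT2 (1.2) and CREB1 (0.55). It calls 1 lower, NFKB1 (-0.75), beside 22.1% of its genes in either direction. NLRC5 rose with culture in wild-type A549 (1.67, SE 0.25, adjusted p = 0.00137), whereas in wild-type H2023 it had -0.06 (adjusted p = 0.863) and 9.16 to 10.98 TPM in its 4 libraries. In H2023 limma called none of the 16 by label. An unadjusted p under 0.05 was found for 2 in normal culture, beside 18.2% of all genes, and for 5 in stem-cell-enriched culture, beside 15.5%. The authors' deposited table calls IRF9 (0.93) and CIITA (1.37) higher in H2023 stem-cell-enriched culture. The NLRC5 difference by label differed between the lines in stem-cell-enriched culture (1.49, SE 0.33, adjusted p = 0.00994).

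**Figure D5:**
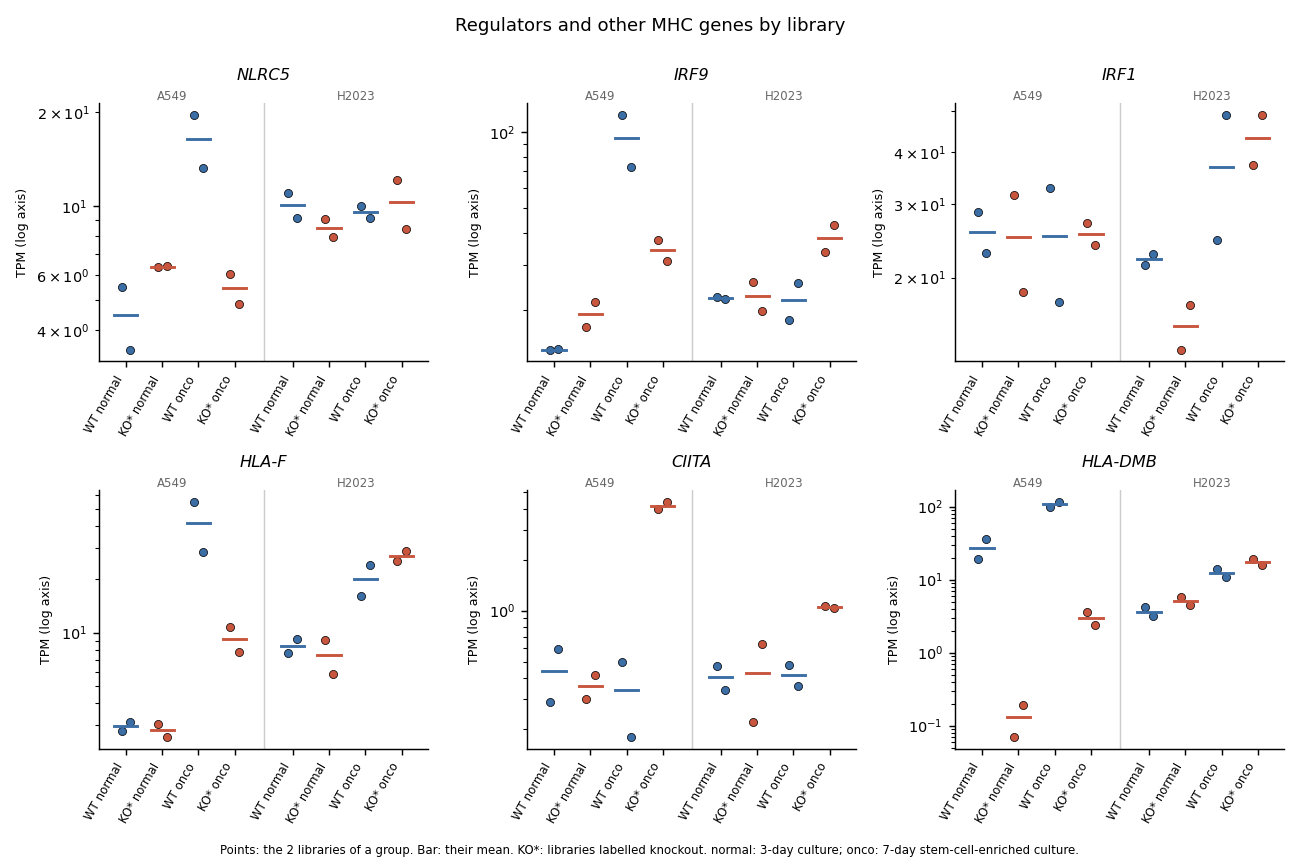
TPM on a log axis for regulators and other MHC genes, with 1 point per library and a bar at the group mean, for wild type (blue) and libraries labelled knockout (red). NLRC5 and IRF9 are highest in wild-type A549 in stem-cell-enriched culture (19.6 and 13.2 TPM, 117 and 72.6 TPM), and CIITA is highest in A549 labelled knockout in that culture (3.96 and 4.38 TPM).

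The type I interferon-stimulated genes, which share inducers with class I, gave the widest contrast. All 24 rose with culture in wild-type A549 (median 4.13), against 19% of all genes, and nearly all did without stem-cell-enriched replicate 1. By label in A549 stem-cell-enriched culture 17 of 24 fell (median -2.51), against 7.2% of all genes. OAS1, an antiviral RNA sensor, fell from 440.0 and 349 TPM to 89.6 and 65.8 TPM (-2.34, SE 0.19, adjusted p = 0.00415). When any 1 of those 4 libraries was left out the medians were -1.90 to -3.23, in fits that lost nearly all calls over all genes. OAS3 and USP18 fell there by 2.48 and 2.72. In A549 normal culture limma called 3 of the 24 lower by label, OAS1 (-1.98), USP18 (-1.24) and OAS3 (-0.8). It called 2 of them higher, beside 10.8% of all genes called in either direction. Of the 24, 5 rose and 1 fell with culture in wild-type H2023 (median 0.84), beside 3.96% of all genes higher and 17.4% lower. Fewer rose when any 1 of its 4 libraries was left out. By label limma called 0 of them in H2023 stem-cell-enriched culture (median 0.64). Of the 24, 8 had an unadjusted p under 0.05 there, beside 15.5% of all genes. The authors' deposited table calls OAS1 higher (1.82) and BST2, a tether of budding virions, lower (-2.20) there, where it calls 2.85% of its genes lower. In H2023 normal culture limma called 0 of the 24, with 6 at an unadjusted p under 0.05, beside 18.2% of all genes. The authors' deposited table calls 3 higher and BST2 lower (-5.59) there, beside 3.84% of its genes higher and 6.97% lower. The same comparison of label between lines in stem-cell-enriched culture gave 22 of 24 higher in H2023 (median 3.16), against 9.37% of all genes. Of the class I members 7 of 9 were, with a median of 1.58. Of 10 interferon receptors, kinases and regulators of their signalling, IFNGR1 rose by label in A549 stem-cell-enriched culture (0.85, SE 0.12, adjusted p = 0.0131), beside 6.04% of all genes higher. The receptor gene IFNAR2 (-0.96) and PTPN2 (-0.58), a phosphatase, fell in A549 normal culture, beside 10.8% of all genes called in either direction. In H2023 limma called none by label. The authors' deposited tables call IFNGR1 lower in H2023 normal culture (-0.76, beside 6.97% of genes lower) and higher in stem-cell-enriched culture (0.62, beside 2.22% higher).

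Within each line the members varied together over its 8 libraries, as a description that includes the culture difference all pairs share. The median of 36 pairwise Pearson correlations of log2(TPM + 1) was 0.80 in A549 and 0.80 in H2023. In A549 PSMB9 stood apart, at 0.10 with TAPBP and 0.18 with B2M, while it was at 0.71 with its neighbour TAP1 and 0.80 with TAP2. In H2023 TAP2 stood apart, at -0.35 with HLA-B and -0.34 with B2M, and PSMB9 was at 0.92 with TAP1. The genes most like the members' mean profile were ranked by the lower of the 2 lines' correlations among 10928 genes with a mean of at least 5 TPM. The first 8 were IFI35 (0.98 in A549 and 0.98 in H2023), STX5 (0.99 and 0.97), DDX58 (0.97 and 0.97), OASL (0.96 and 0.96), MMUT (0.96 and 0.97), DAP (0.96 and 0.96), BTN3A2 (0.95 and 0.96) and PLAAT4 (0.95 and 0.95). IFI35, DDX58 and OASL are known interferon-stimulated genes, and BTN3A2 is a butyrophilin of the extended MHC. IFI35 had 174 and 72.7 TPM in wild-type A549 in stem-cell-enriched culture, 35.05 and 29.6 TPM in libraries labelled knockout, and 16.9 to 22.6 TPM in the 8 normal-culture libraries of both lines.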

How the data were processed

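Poly(A) RNA was sequenced after TruSeq stranded mRNA preparation, per the labels' protocols, and the submitters' processing notes name HISAT2, StringTie and GRCh38 without roles. The authors deposited 1 table per line and culture with TPM per library, a mean normalized count (used as a signal of abundance), a log2 fold change with its standard error, a test statistic (a score), and p-values, per the file headers. That score has the opposite sign to the fold change beside it throughout (18361 rows per table) and was not used. The line of each table was taken from its name. TPM keeps no read depth, so no interval for counting error is given.

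Of 18361 rows, 119 identifiers on several rows were joined, which left 18227 genes. TPM values were taken as log2(TPM + 1) and tested with limma 3.58.1 in R 4.3.3 (moderated test with a mean-variance trend, two-sided, Benjamini-Hochberg over all genes, threshold 0.05). A difference on this scale understates the change of low genes. Label comparisons used the 4 libraries of a table, culture comparisons and their interaction the 8 libraries of a line, and line comparisons all 16. The comparisons share libraries, wild-type ones among them. On simulated data for A549 stem-cell-enriched culture, 89 of 100 genes changed 4-fold and 35 of 100 changed 2-fold were recovered. For H2023 stem-cell-enriched culture these were 69 and 4.

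All 9 members are named. From each other list, up to 3 genes with the smallest adjusted p in a label comparison are named, with HLA-F, the other catalytic proteasome subunits, NLRC5, IRF1 and ZC3H12A in any case. Some further genes of these lists are not reported here. The 8 genes most like the members' mean profile, and LYZ, CD68, EPCAM, KRT8 and KRT19 as markers, are named too. IRF9, PSME1, PSME2 and TAPBPL, where outside this rule, CD74, further marker genes, and genes named only from the authors' deposited tables were chosen after their values were seen. The members and lists were chosen with earlier results of these data known. Tables and figures were made with pandas 2.3.3, numpy 2.4.6 and matplotlib 3.10.9. Loci and promoters are from RefSeq, GRCh38.p14. Alternatives were another pseudocount (0.1), a minimum mean of 1 TPM, median centring, scaling without mitochondrial genes, other sets of libraries, no trend, a replicate block, leaving out each library, and the authors' deposited tests.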

Additional observations from a re-analysis of the deposited data

Results flagged for a closer look

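For 9 results the difference by label itself differed between conditions by an interaction term (limma, adjusted p under 0.05). In A549, the difference by label was lower in stem-cell-enriched than in normal culture for HLA-C (-1.36, adjusted p = 0.0472) and TAP2 (-1.27, adjusted p = 0.0437). In stem-cell-enriched culture, it was higher in H2023 than in A549 for HLA-B (1.89), HLA-C (1.58), HLA-E (1.61), TAP1 (1.74), TAP2 (1.53), TAPBP (1.20) and PSMB9 (2.22). Both comparisons rest on the same A549 wild-type libraries, of which replicate 1 had the higher value for all 9 members. Without it the line values were 1.30, 1.22, 1.27, 1.30, 1.26, 1.07 and 1.57 in the same order of genes, and the culture value of TAP2 was -0.99 (adjusted p = 0.0933). ZC3H12A RNA was higher in the libraries labelled knockout in 3 of the 4 comparisons. An RNA level cannot show whether the edit removed its function, so each direction holds for the label only.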

How the results depend on the processing

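Of 1476 values of single members under an alternative, 1287 kept their direction and side of the threshold, 86 lost a call, 62 gained one, 41 changed sign without a call under either setting and 0 reversed as called values. The cause of each change below was not tested. By label in A549 normal culture (0 members called), 1 was called with a mean of at least 1 TPM and 2 in the authors' deposited table. In A549 stem-cell-enriched culture (2 called), 4 were called with a mean of at least 1 TPM, 5 in a fit over 8 libraries, 1 without the trend and 7 in the authors' deposited table. By label in H2023 normal culture (0 called), 1 was called with a mean of at least 1 TPM and 4 in the authors' deposited table, and in stem-cell-enriched culture (0 called) 2 in a fit over 8 libraries and 3 in the authors' deposited table. Culture in wild-type H2023 gave 2 rather than 4 in a fit over 4 libraries. The label by culture interaction in A549 gave 1 rather than 2 with a pseudocount of 0.1. The line comparison gave 3 rather than 5 in normal culture after median centring, and 1 rather than 3 in stem-cell-enriched culture in a fit over 4 libraries. The label by line interaction in normal culture (0 called) gave 1 with a pseudocount of 0.1, 1 with a mean of at least 1 TPM and 3 from the authors' deposited folds. Leaving out 1 library gave 0 to 0 by label in all 4 settings, 7 to 9 for culture in wild-type A549, 0 to 4 in A549 labelled knockout, 1 to 4 in wild-type H2023 and 3 to 6 in H2023 labelled knockout. It gave 0 to 4 for label by culture in A549, 0 to 0 in H2023, 3 to 6 and 2 to 5 for line in normal and stem-cell-enriched culture, and 0 to 1 and 4 to 8 for label by line. A lone library is assumed there to vary like the other groups. The labels do not say whether libraries of the same number belong together (2 pairs per comparison). Correlations of same-number deviations between genotypes were 0.0766 and 0.1243 in A549 and 0.0371 in H2023 normal culture. In H2023 stem-cell-enriched culture the value was 0.4757, and replicate 2 was the higher library of both genotypes for every member but TAP2. Between the cultures of 1 genotype the correlations ranged from 0.1062 to 0.1653. The main label tests took no account of any such pairing. With a replicate block 1 member was called by label in A549 normal culture and 6 in stem-cell-enriched culture, and 0 in either H2023 culture. No other count of members moved by more than 1.5 times. Over all genes called by label in A549, 1971 and 2413 in normal and stem-cell-enriched culture, no call was left in any fit without 1 library, except 38 without A549 labelled-knockout stem-cell-enriched replicate 1.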

Other observations

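MHC class II genes, which present peptides from taken-up proteins to CD4 T cells, were mostly called in the other direction from class I by label in A549 stem-cell-enriched culture, while their calls with culture in A549 were upward, as those of class I were. With culture, limma called 3 of 8 class II genes measured higher in wild-type A549 (19% of all genes) and 8 of 8 in A549 labelled knockout (10.9% of all genes; median 2.75). By label in A549 stem-cell-enriched culture, 5 of the 8 were higher and 1 lower, where 6.04% and 7.2% of all genes were, beside lower mean levels of all 9 class I members. HLA-DRA, the class II alpha chain, stood at 0.07 and 0.30 TPM in wild type, and the libraries labelled knockout had 16.55 and 12.2 TPM (3.69, SE 0.24, adjusted p = 0.00281), and HLA-DPA1 had 0.27 and 0.43 TPM against 6.93 and 6.40 TPM (2.51, SE 0.18). CD74, the invariant chain, had 0.26 and 1.30 TPM against 20.3 and 17.99 TPM. HLA-DMB, part of the class II peptide editor, was lower by label, at 3.59 and 2.39 TPM where wild type had 98.2 and 116 TPM (-4.77, SE 0.19, adjusted p = 0.00164). In A549 normal culture the libraries labelled knockout had 0.07 and 0.19 TPM and wild type 19.1 and 35.65 TPM. In H2023 limma called none of the 8 by label. An unadjusted p under 0.05 was found for 4 in normal culture, beside 18.2% of all genes, and for 2 in stem-cell-enriched culture, beside 15.5%. The authors' deposited tables call CD74 lower in H2023 normal culture (-2.37, adjusted p = 0.0329) and higher in H2023 stem-cell-enriched culture (2.29, adjusted p = 4.90e-05). The class II calls higher in the A549 stem-cell-enriched comparison needed all 4 libraries, as nearly all calls over all genes did there.

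Of 7 measured ligands of activating NK receptors, limma called 2 by label in A549 normal culture, beside 10.8% of all genes in either direction. RAET1G was higher (1.70, SE 0.22, adjusted p = 0.0167) and MICA lower (-0.64, SE 0.14, adjusted p = 0.049). The authors' deposited table calls RAET1G higher and MICA and MICB (-0.81) lower there, beside 22.1% of its genes in either direction. In A549 stem-cell-enriched culture RAET1E was lower (-1.11, SE 0.22, adjusted p = 0.0314), at 5.11 and 4.56 TPM against 13.7 and 9.81 TPM, where limma called 7.2% of all genes lower. In H2023 limma called none by label, with 2 at an unadjusted p under 0.05 in each culture. The authors' deposited tables call ULBP3 (0.98) and RAET1E (1.21) higher in H2023 normal culture, beside 3.84% of their genes. They call RAET1E (1.64) higher in H2023 stem-cell-enriched culture, beside 2.22%.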
